A study of Mus musculus with 16 samples.

Results

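To see what selection for Va3.2 does to the TCRα repertoire of SP CD8 thymocytes, libraries from sorted Va3.2+ cells were set against libraries from all SP CD8 thymocytes. SP CD8 thymocytes are the single positive cells that have passed positive selection and express CD8 but not CD4. Of 16 libraries, 8 entered the comparison, chosen by their labels: 4 from sorted Va3.2+ SP CD8 thymocytes and 4 from unsorted SP CD8 thymocytes. Each kind held 2 libraries labelled Themis+/+Foxp3-GFP and 2 labelled Themis-/-Foxp3-GFP, all on the C57BL/6 strain background. The Foxp3-GFP reporter was thus carried by both genotypes. The Themis-/- mice carry a germline null allele, Themis tm1Gasc, rather than a Cre-driven deletion, and no treatment is given for these thymocytes. Unsorted here means not selected for Va3.2, as all cells had been gated as SP CD8. The series' design text gives the 2 libraries of a group as 2 individual mice, and the sources used here give no ages. The paper's sorting methods, however, describe lymph nodes pooled over several mice per genotype and do not say whether thymi were pooled. What a library stands for is thus not settled. TCRα tables do not measure Themis, so the genotypes rest on the labels. One label field names another Va segment, Va2.3, for the sorted cells, while the title and the cell subset give Va3.2.

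The TCRα chain is assembled in the thymus by joining a V segment (TRAV) to a J segment (TRAJ), and the junction forms the third complementarity-determining region, CDR3, which lies over the antigenic peptide. CDR1 and CDR2 are encoded by the V segment itself and chiefly contact the MHC molecule. In mice the central part of the V cluster is duplicated, and copies carry the letters D and N in their names, so that the TRAV9 (Va3) family has several near-identical members. Va3.2 is the serological name of chains that bind the antibody RR3-16, whose target is a CDR1 with phenylalanine at position 28. Va3.2 chains are known for being found more often on CD8 than on CD4 T cells.

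The TRAV9 segments differ at the codon for that residue, and the CDR1 region of each is shown for that reason. In GENCODE M21 the 11 annotated TRAV9 genes lie on the plus strand of chromosome 14 of GRCm38. The stretches begin at the conserved cysteine counted as position 23, span 45 bases and have codon 28 in capitals.
TRAV9N-3 and TRAV9D-3: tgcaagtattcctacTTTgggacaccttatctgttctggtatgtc
TRAV9N-4 and TRAV9D-4: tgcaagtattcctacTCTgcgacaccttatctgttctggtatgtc
TRAV9-4: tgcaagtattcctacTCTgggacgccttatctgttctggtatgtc
TRAV9-2: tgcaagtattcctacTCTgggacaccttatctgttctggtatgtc
TRAV9D-2 and TRAV9N-2: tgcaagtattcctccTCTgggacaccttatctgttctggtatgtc
TRAV9-1 and TRAV9D-1: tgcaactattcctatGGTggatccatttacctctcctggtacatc
Phenylalanine (TTT) stood at position 28 in TRAV9N-3 and TRAV9D-3, serine (TCT) in the -4 and -2 members and glycine (GGT) in the -1 members. TRAV9N-3 lies at chr14:53231433-53232102 and TRAV9D-3 at chr14:52920443-52921112. These stretches were identical, and 29.7% to 42.3% of the sequences given to either gene in a library named both with the same top score. The reads of both were therefore added and are given as TRAV9N-3/TRAV9D-3. TRAV9D-4 lies at chr14:52983201-52983860, TRAV9N-4 at chr14:53294341-53295030, TRAV9-2 at chr14:53590857-53591514 and TRAV9-4 at chr14:53676141-53676630. The first TRAJ segment begins at 54155005, so that TRAV9-4 lies 478 kb and TRAV9D-3 1234 kb before it.

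The last bases of each segment are shown because they encode the start of CDR3. They are the 3' 24 bases, with the final base, the first of the fifth CDR3 codon when nothing is trimmed, in capitals.
TRAV9N-3 and TRAV9D-3: ctgtgtacttctgtgctgtgagcA
TRAV9N-4 and TRAV9D-4: ctgtgtacttctgtgctctgagcA
TRAV9-4, TRAV9-1 and TRAV9D-1: ctgtgtacttctgtgctgtgagcG
TRAV9-2: ctgtgtacttctgtgttttgagcG
TRAV9D-2 and TRAV9N-2: ctgtgtacttctgtgttctgagcG
The -3, N-4 and D-4 members thus end in A and the other members in G.

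The unsorted libraries held 98460 to 146191 reads in 9457 to 16670 distinct CDR3 nucleotide sequences. The sorted libraries held 11674 reads in 84 sequences and 18191 in 369 for Themis+/+, and 10338 in 86 and 22940 in 533 for Themis-/-, always in the order library 1, library 2. A sequence was supported by a median of 29 to 92.5 reads in a sorted library and of 4 to 5 in an unsorted one, and 3.56% to 5.95% of the sorted sequences were seen in a single read against 16.4% to 21.2% of the unsorted ones. Library 1 of both genotypes thus holds very few sorted sequences. The deviations of V segments from their group means went together in sorted libraries of the same number across genotypes (r = 0.41 over 112 segments, which are not independent) but not in unsorted ones (r = -0.10). The paper pooled its sequencing data of each genotype from 2 individual experiments. Whether a library number marks a shared experiment is not stated. The number of cells behind the sorted Va3.2+ libraries is not stated, and the methods describe no molecular identifiers, so reads of a sequence are not independent molecules and every interval or limit given here covers counting error only. The tables of sorted and unsorted libraries also had different column layouts, and this difference in export cannot be told apart from the sort. More cells using a segment and more TCRα RNA per cell cannot be told apart either.

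The sort turned a minor family into nearly the whole repertoire. Of all reads, the TRAV9 family made up 2.15% and 2.09% in unsorted Themis+/+ libraries and 2.33% and 2.03% in unsorted Themis-/- libraries. In the sorted libraries it made up 99.8% and 98.8% for Themis+/+ and 99.3% and 99.8% for Themis-/-. The means were 2.15% ± 0.128 and 99.4% ± 0.459 (SD, n = 4 each), with no overlap. Outside TRAV9 the sorted libraries held 25 and 213 reads for Themis+/+ and 74 and 50 for Themis-/-, in 2 to 15 sequences each.

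Reads per V segment were compared with edgeR's quasi-likelihood test, scaled by library totals and with genotype as a covariate. Of 112 segments tested, 4 were higher in the sorted libraries (3.57%) and 103 were lower (92.0%) at an adjusted p under 0.05. The sort was made on Va3.2, so the rise of TRAV9N-3/TRAV9D-3 and the fall of segments outside TRAV9 were set in advance. The p values of those segments add no support. The median log2 fold change over all segments was -10.88, which falls on segments with 0 sorted reads. Where a group had 0 reads, the size of a log2 fold change depends on how the test handles zeros and is not measured. All 4 segments that rose belong to TRAV9: TRAV9N-3/TRAV9D-3, TRAV9N-4, TRAV9-4 and TRAV9D-4.

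TRAV9N-3/TRAV9D-3, the segment with phenylalanine at position 28, took 0.862% and 0.698% of reads in unsorted Themis+/+ libraries and 0.917% and 0.999% in unsorted Themis-/- libraries. In the sorted libraries it took 83.1% and 53.2% for Themis+/+ and 88.5% and 41.2% for Themis-/-. The groups did not overlap, and library 2 was lower than library 1 among the sorted libraries of both genotypes. The mean rose from 0.869% ± 0.127 to 66.5% ± 22.9 (SD, n = 4 each), a ratio of 76.5, with a log2 fold change of 6.26 ± 0.46 (SE; edgeR adjusted p = 1.6e-05). It was carried by 76 and 281 distinct sequences in the Themis+/+ and by 83 and 347 in the Themis-/- sorted libraries. As a share of distinct sequences it made up 65.1% to 96.5% of a sorted library and 0.846% to 1.27% of an unsorted one.

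In Themis-/- sorted library 2, reads of segments without phenylalanine at position 28 therefore outnumbered TRAV9N-3/TRAV9D-3. TRAV9N-4 took 0.135%, 0.0762%, 0.170% and 0.159% of reads in the unsorted libraries, Themis+/+ first. In the sorted libraries it took 10.6% and 13.2% for Themis+/+ and 10.7% and 15.9% for Themis-/-, again without overlap, and the log2 fold change was 6.58 ± 0.39 (SE; edgeR adjusted p = 1.0e-05). These reads came from few sequences, 2 and 22 in the Themis+/+ and 1 and 41 in the Themis-/- sorted libraries, whereas the unsorted libraries spread far fewer reads over 11 to 42 sequences.

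TRAV9-4 was read in 3 of the 4 sorted libraries. It took 6.04% and 28.9% of reads for Themis+/+ and 0% and 38.7% for Themis-/-, against 0.259% and 0.400%, and 0.321% and 0.150%, in the unsorted libraries. Its 6.04% in Themis+/+ sorted library 1 was a single sequence, while library 2 of Themis+/+ and of Themis-/- held 43 and 104. The groups overlapped and the test rested on library 2: the log2 fold change of 6.04 ± 1.79 (SE; edgeR adjusted p = 0.00971) was -0.84 without library 2 of every group, and the call was lost without Themis-/- sorted library 2 (4.16, edgeR adjusted p = 0.0927) or either Themis-/- unsorted library. TRAV9D-4 likewise had 0 reads in library 1 and 3.01% and 2.61% of reads in library 2 of the sorted groups, in 4 and 7 sequences, against 0.0121% to 0.129% in the unsorted libraries. Its log2 fold change of 5.14 ± 1.96 (SE; edgeR adjusted p = 0.0309) was -8.77 without library 2 of every group and -0.55 with DESeq2's own size factors, it was 1.57 with a replicate block (edgeR adjusted p = 0.741), and the call was also lost without any of Themis-/- sorted library 2 (2.91), Themis+/+ sorted library 2 (4.71), Themis+/+ unsorted library 2 (5.12) or the Themis-/- unsorted libraries (4.88 and 4.70).

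In the sorted libraries TRAV9N-4 and TRAV9-4 were set apart from TRAV9N-3 and TRAV9D-3 by clear differences in alignment score, with 1 exception. Where a sorted TRAV9N-4 sequence also listed TRAV9N-3 or TRAV9D-3 as a hit, its alignment score exceeded theirs by a median of 137 to 142 in each library, and by at least 123. For TRAV9-4 the median margin was 93.3 to 94.8, and 1 of its sequences lay within 20 of the score of TRAV9N-3 or TRAV9D-3. No sorted sequence of either segment was tied with them. In the unsorted libraries, Themis+/+ first, 2, 0, 1 and 1 TRAV9-4 sequences lay within 20 of that score. TRAV9N-3 or TRAV9D-3 was listed for 13 of 39, 4 of 11, 18 of 38 and 18 of 42 unsorted TRAV9N-4 sequences, and for every sorted one. For TRAV9D-4, 0 of the 4 and 0 of the 7 sequences in sorted library 2 listed TRAV9N-3 or TRAV9D-3, so no margin can be given. Margins between TRAV9N-4 and TRAV9D-4 were not taken.

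None of the other TRAV9 members was called higher by reads over all 8 libraries. TRAV9-2 took 0.429%, 0.236%, 0.154% and 0.133% of reads in the unsorted libraries, and 0% and 0.511% in the Themis+/+ and 0% and 1.09% in the Themis-/- sorted ones (log2 fold change 0.79 ± 1.48, edgeR adjusted p = 0.606), so that its groups overlapped. It was called higher when distinct sequences were counted (log2 fold change 2.45, edgeR adjusted p = 0.000762) and in the Themis-/- libraries alone (1.94, edgeR adjusted p = 0.000958), and lower with DESeq2's own size factors (-4.94, DESeq2 adjusted p = 0.00416). TRAV9D-2 took 0.265% to 0.517% of unsorted reads and was read in 1 sorted library, at 0.301% in 4 sequences of Themis-/- library 2 (log2 fold change -3.37 ± 1.55, edgeR adjusted p = 0.0618). It was called lower without that library (-11.21, edgeR adjusted p = 1.1e-05) and with a replicate block (-7.43, edgeR adjusted p = 0.0164). TRAV9-1, with glycine at position 28, fell from 0.0400% to 0.118% of unsorted reads to 2 pooled sorted reads (26.1-fold, 95% counting interval 7.22 to 215, edgeR adjusted p = 0.00206). Those reads were 1 sequence, and by distinct sequences the log2 fold change of TRAV9-1 was -1.03 (edgeR adjusted p = 0.487), so that the call was lost. TRAV9D-1, also with glycine, fell from 0.0168% to 0.195% to 0 reads, at least 18.4-fold lower than a floor of 3 reads in the pooled sorted reads allows (edgeR adjusted p = 0.00143). TRAV9N-2 had 0 sorted reads and at most 0.0104% of unsorted reads, too few for a difference to be detectable at this depth.

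**Figure D1:**
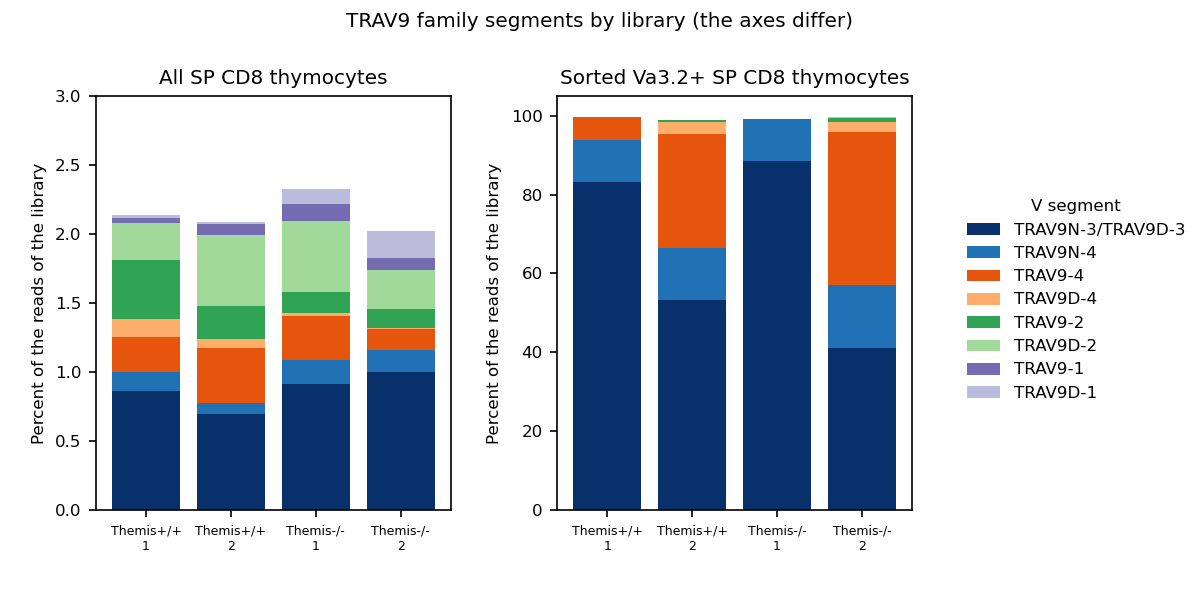
Stacked bars give the percent of a library's reads, on the vertical axis, in each TRAV9 segment for the 4 unsorted (left) and the 4 sorted libraries (right), with axes of different range and no error bar because each bar is 1 library. TRAV9N-3/TRAV9D-3 fills 41.2% to 88.5% of a sorted library, and TRAV9-4 is large only in library 2 of both genotypes.

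The 103 segments that fell had a higher share of reads in every unsorted library than in any sorted one, and 78 of them had 0 reads in all 4 sorted libraries. Over the 114 segments with reads, 82 had 0 among the 63143 pooled sorted reads, which allows each a share of up to 0.00475%. Against that floor their pooled unsorted shares were higher by a median of at least 112-fold. TRAV12N-3 had the largest mean unsorted share of the named segments, 5.91% ± 1.20, and 0 sorted reads, at least 1267-fold lower. TRAV3N-3 at 3.23% ± 0.681, TRAV6D-6 at 3.16% ± 0.511, TRAV16N at 2.88% ± 0.201, TRAV6N-7 at 2.65% ± 0.669, TRAV7D-2 at 2.37% ± 0.493 and TRAV12-3 at 1.6% ± 0.130 of unsorted reads (SD, n = 4 each) also had 0 sorted reads. Their bounds were at least 338-fold for TRAV12-3 to at least 687-fold for TRAV3N-3. TRAV7-5, TRAV14-3 and TRAV14-1 kept 2, 2 and 1 sorted reads, which gives ratios of 824 (95% counting interval 228 to 6801), 543 (150 to 4487) and 520 (93.3 to 20532). The edgeR adjusted p was 1.6e-05 for each of these 10.

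Over all segments tested, 103 of 112 (92.0%) were called lower, so the counts by family below lie near that share. By family, TRAV12 went from 19.2% ± 1.18 of unsorted reads to 6 pooled sorted reads, and all 9 of its segments were called lower. TRAV14 went from 11.2% ± 0.613 to 11 reads, with 9 of 9 segments lower. TRAV6 went from 14.5% ± 1.49 to 153 reads, with 14 of 15 segments lower. The exception was TRAV6N-5, of which a single sequence in Themis+/+ sorted library 2 gave 124 of those reads (log2 fold change -2.94 ± 2.17, edgeR adjusted p = 0.216). The other large remainder outside TRAV9, named after its values were seen, was TRAV3D-3, with 6 and 34 reads in the Themis+/+ and 68 and 4 in the Themis-/- sorted libraries. It was also lower than in unsorted cells (log2 fold change -3.73 ± 1.0, edgeR adjusted p = 0.00572).

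TRAV and TRAJ pairs used by other T cell types, and TRDV segments, were at 0 in all sorted libraries. The removal of segments outside TRAV9 by the sort sets this, so the counts of 0 do not speak to the purity of the gate. TRAV11 with TRAJ18, the pair that the invariant NKT chain uses, had 69 and 114 reads in unsorted Themis+/+ and 517 and 485 in unsorted Themis-/- libraries. TRAV1 with TRAJ33, the pair that the MAIT chain uses, had 39 and 5, and 62 and 0 reads. Both pairs were counted whatever their CDR3. TRDV segments had 815 and 1834, and 803 and 635 reads. Reads without a TRAJ segment numbered 0 and 32, and 0 and 0. Nearly all TRDV reads were thus joined to TRAJ, as in a TCRα chain, and do not count δ chains. A count of 0 allows a share of up to 0.0131% to 0.0290% in a sorted library. A share of TRAV1 with TRAJ33 like the 0.00508% of unsorted Themis+/+ library 2 would thus not be detectable there. TRAV11 with TRAJ18 at 0.0553% to 0.419% and TRDV at 0.549% to 1.86% of unsorted reads lay above those limits.

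**Figure D2:**
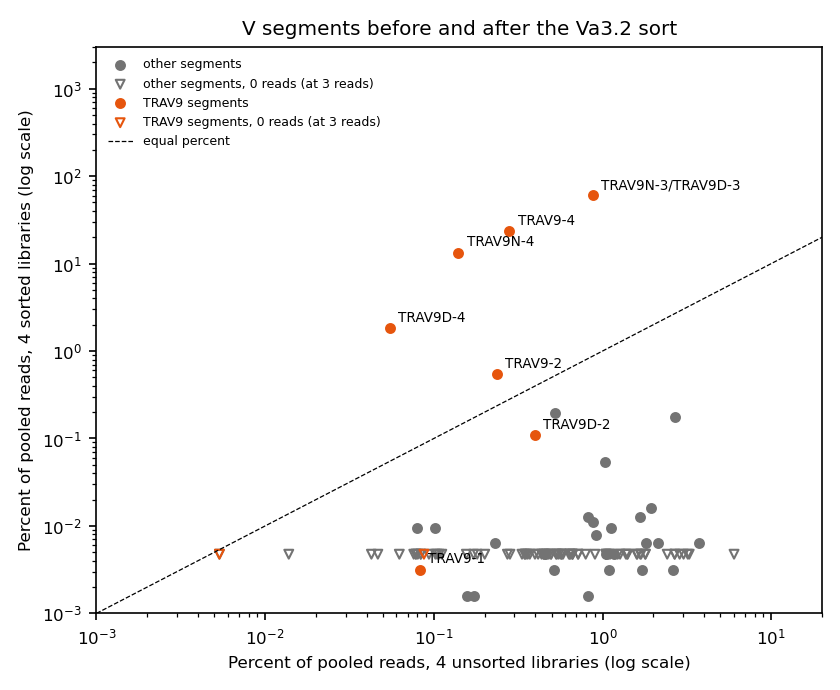
Each point is a V segment, placed by its percent of the pooled unsorted reads (horizontal, log scale) and of the pooled sorted reads (vertical, log scale), with TRAV9 segments in orange. Open triangles stand for segments with 0 sorted reads, drawn at 3 reads (0.00475%), and the dashed line marks equal shares. TRAV9N-3/TRAV9D-3, TRAV9N-4, TRAV9-4, TRAV9D-4 and TRAV9-2 lie above the line.

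To ask whether the sort acted differently in the absence of Themis, the difference of the sort effect between genotypes was tested. EdgeR called 0 of 112 segments (0.0%), and 9 had an unadjusted p under 0.05. For TRAV9N-3/TRAV9D-3 the log2 fold change was 6.45 in Themis+/+ and 6.08 in Themis-/- libraries taken alone, and the interaction was -0.37 ± 0.86 (SE). For TRAV9N-4 the values were 6.81 and 6.34, with an interaction of -0.47 ± 0.70, and for TRAV9-4 the interaction was 0.63 ± 2.81 (edgeR adjusted p = 1.0 for each). With these errors a difference of 1 log2 unit between genotypes would not have been detectable. Leaving out Themis-/- sorted library 2, the only one of that group with TRAV9-4 reads, turned the TRAV9-4 interaction to -16.20 (edgeR adjusted p = 1.2e-05).

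The J segments were examined in the same way. By reads, edgeR called 0 of 43 TRAJ segments (0.0%) between sorted and unsorted libraries, and 3 had an unadjusted p under 0.05. DESeq2 called 4 with its own size factors and 3 with library totals. When each distinct nucleotide sequence was counted once, 4 segments were higher (9.3%) and 6 lower (14.0%), with 15 at an unadjusted p under 0.05. The V-distal TRAJ9 made up 2.71% and 1.59% of the sequences in unsorted Themis+/+ and 3.7% and 3.48% in unsorted Themis-/- libraries, against 11.9% and 8.67%, and 9.30% and 5.07%, in the sorted ones. The groups did not overlap (log2 fold change 1.5 ± 0.32, edgeR adjusted p = 0.000162). TRAJ2, the other segment with a small adjusted p, rose from 0.622% ± 0.357 to 2.53% ± 0.702 (log2 fold change 2.07 ± 0.48, edgeR adjusted p = 0.000559). Its sorted share rested on 2 and 13 sequences in Themis+/+ and 2 and 10 in Themis-/- libraries, and it was not called by reads (edgeR adjusted p = 0.740). TRAJ6 and TRAJ4 were also higher, and TRAJ40, TRAJ56, TRAJ49, TRAJ33, TRAJ50 and TRAJ38 lower. The groups overlapped for TRAJ4 and for TRAJ49, whose share in sorted library 1 of both genotypes, 4.76% and 3.49%, lay above that of both unsorted Themis-/- libraries. As these J segments were called only by sequence and not by read, they were named after their values were seen.

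Grouped by position, the sorted sequences leaned to the V-distal end of the J cluster. TRAJ9 to TRAJ1 made up 10.4% and 4.18% of unsorted Themis+/+ and 13.7% and 12.4% of unsorted Themis-/- sequences, against 32.1% and 23.3%, and 23.3% and 20.8%, in sorted libraries. TRAJ61 to TRAJ48, the V-proximal end, made up 14.2%, 21.9%, 10.7% and 11.2% of the unsorted and 5.95%, 4.07%, 6.98% and 6.94% of the sorted sequences. Neither group overlapped between sorted and unsorted libraries. TRAJ47 to TRAJ37 went from 14.5% ± 3.40 to 7.02% ± 1.5, while TRAJ28 to TRAJ19 stood at 22.9% ± 1.10 and 23.8% ± 2.33 (SD, n = 4 each). Unsorted Themis+/+ library 2 stood apart from the other unsorted libraries, with the most V-proximal and the fewest V-distal J segments.

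No J segment passed the test when the same V segment was compared. Within TRAV9N-3/TRAV9D-3, edgeR called 0 of 37 J segments by reads (0.0%) and 0 of 9 by distinct sequences (0.0%), with 1 and 2 at an unadjusted p under 0.05, and DESeq2 called 0. TRAJ9 made up 8.74% ± 2.83 of the TRAV9N-3/TRAV9D-3 sequences of unsorted and 9.92% ± 2.56 of those of sorted libraries. TRAJ9 to TRAJ1 made up 24.5% ± 2.98 and 27.2% ± 3.55, TRAJ18 to TRAJ10 30.5% ± 5.53 and 28.2% ± 3.56, and TRAJ61 to TRAJ48 4.47% ± 3.14 and 3.99% ± 1.99 (SD, n = 4 each). TRAJ28 to TRAJ19 made up 20.6% ± 2.69 and 24.7% ± 2.57 of the sequences, with overlap. By reads this group took 14.7% and 9.61% in unsorted Themis+/+ and 11.7% and 15.6% in unsorted Themis-/- libraries, against 29.6% and 24.8%, and 15.9% and 26.2%, in sorted ones, so that it did not overlap, and it was not tested as a group. The unsorted side of this comparison held only 687 to 1340 reads in 80 to 156 sequences per library. On simulated counts of that size the test called 0 of 10 segments changed by a log2 fold change of 4, so the 0 calls set no limit on the size of a difference.

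**Figure D3:**
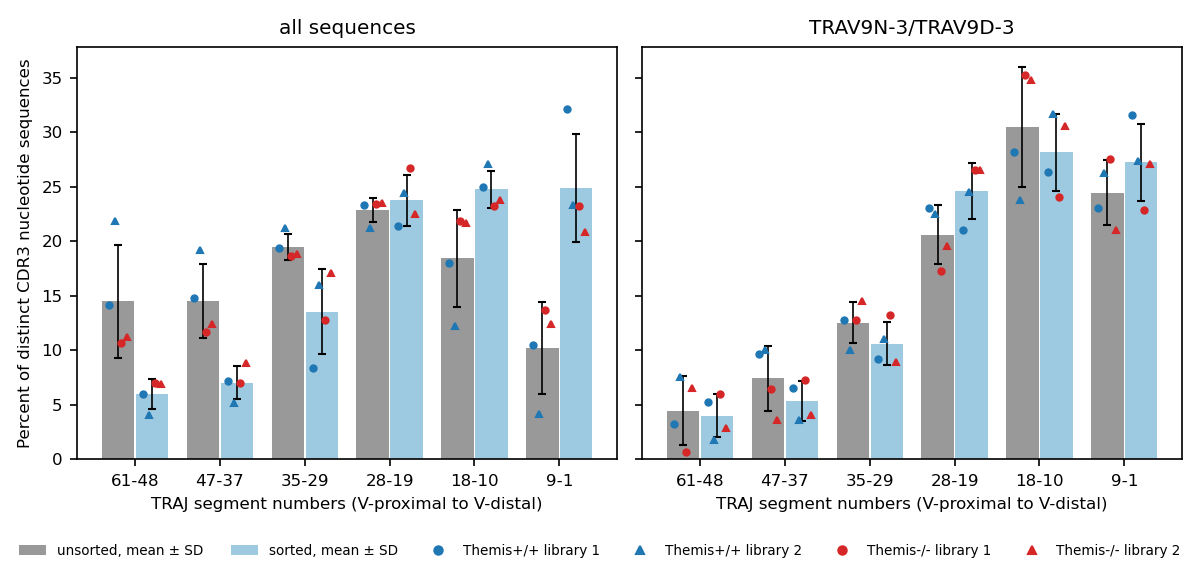
Bars give the mean percent of distinct CDR3 nucleotide sequences (vertical axis, error bars SD over 4 libraries) in 6 groups of TRAJ segments ordered from the V-proximal to the V-distal end, with 1 point per library. Over all sequences (left) the sorted libraries exceed the unsorted ones in TRAJ9 to TRAJ1, 24.9% against 10.2%, while within TRAV9N-3/TRAV9D-3 (right) the points of both kinds overlap in each group.

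The CDR3s of sorted cells differed from those of all SP CD8 cells in most properties measured. Over all distinct amino acid CDR3s, 6 of 8 properties differed between sorted and unsorted libraries without overlap (exact permutation test of 4 against 4 libraries, two-sided, p = 0.0286, the smallest this design allows, adjusted p = 0.0381 for each). The paper already described hydrophobicity, charge and fifth-residue make-up of Va3.2 CDR3s from this series, so tests of these add no independent support. The 6 properties also overlap, because the fifth residue enters hydropathicity and net charge. The fifth CDR3 residue, where the V segment's last base begins the codon, was methionine in 2.97% and 2.95% of unsorted Themis+/+ and 3.8% and 3.54% of unsorted Themis-/- CDR3s. In sorted libraries it was methionine in 25.3% and 23.8% for Themis+/+ and 18.6% and 18.2% for Themis-/-. The acidic residues aspartate and glutamate at this position went the other way, from 27.7% ± 0.729 to 4.59% ± 0.701, and isoleucine or leucine went from 4.63% ± 0.287 to 12.5% ± 3.33 (SD, n = 4 each). The call for isoleucine or leucine was lost when any unsorted library was left out, though the difference stayed between 6.89 and 9.08 percentage points with any library left out.

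Sorted CDR3s were also more hydrophobic and more positively charged. Kyte-Doolittle hydropathicity per residue rose from 0.175 ± 0.0255 to 0.458 ± 0.0390, and net charge, counted as lysines and arginines minus acidic residues, from 0.438 ± 0.0583 to 0.849 ± 0.0659 (SD, n = 4 each). The mean J number, which is lower for V-distal segments, was 29.3 and 33.8 in unsorted Themis+/+ and 26.9 and 27.6 in unsorted Themis-/- libraries, against 19.2 and 20.5, and 21.5 and 22.7, in sorted ones. CDR3 length was 40.5 bp ± 0.161 in unsorted and 40.4 bp ± 0.227 in sorted libraries (exact permutation test, adjusted p = 0.486). CDR3s of 39 and of 42 bp were the most frequent in each library, at 24.2% to 38.6% each. Sequences without N nucleotides, those added at the junction without template, made up 32.8% ± 0.708 and 37.6% ± 6.80 (exact permutation test, adjusted p = 0.131).

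Within TRAV9N-3/TRAV9D-3, 0 of the 8 properties differed by the same exact permutation test, and 0 had an unadjusted p under 0.05. The smallest p this exact permutation test allows is 0.0286, so a property separated alone could not pass after adjustment over 8. The 0 calls therefore do not show that the CDR3s of both kinds are alike. Methionine stood at position 5 in 19.6% and 16.9% of unsorted Themis+/+ and 33.8% and 18.3% of unsorted Themis-/- CDR3s, and in 26.7% and 26.4%, and 19.3% and 23.7%, of sorted ones. The means of 22.1% ± 7.86 and 24% ± 3.43 differed by less than their spread (exact permutation test, adjusted p = 0.743). Isoleucine or leucine came nearest to the threshold, at 19.3% ± 3.62 in unsorted and 14.0% ± 2.56 in sorted CDR3s (exact permutation test, p = 0.0571, adjusted p = 0.457). Hydropathicity stood at 0.498 ± 0.0710 and 0.478 ± 0.0474, net charge at 0.861 ± 0.0805 and 0.817 ± 0.0718, and the mean J number at 21.1 ± 2.54 and 19.1 ± 1.52 (SD, n = 4 each).

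**Figure D4:**
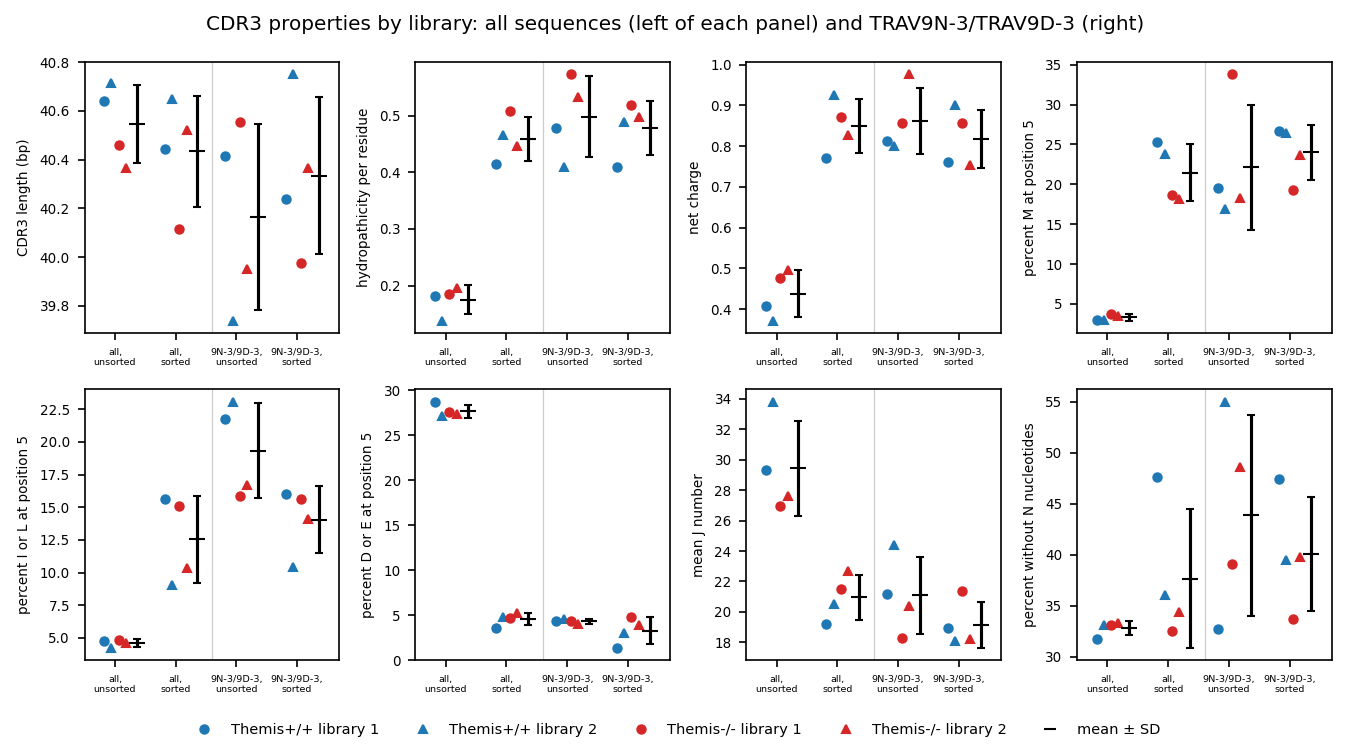
Each panel plots 1 CDR3 property on the vertical axis, in the unit named there, with 1 point per library, for all sequences (left of the grey line) and for TRAV9N-3/TRAV9D-3 (right), and with mean ± SD of 4 libraries. Vertical axes other than that for D or E do not start at 0. Sorted and unsorted points separate in 6 of the 8 panels for all sequences and overlap in all 8 for TRAV9N-3/TRAV9D-3.

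The TRAV9 segments differed among themselves at position 5 in the way their germline ends do. The fifth codon began with A in 40.0% to 65.4% of the TRAV9N-3/TRAV9D-3 sequences of a library, and with G in 42.9% to 71.2% of the TRAV9-4 sequences, over libraries with at least 10 CDR3s of the segment. Methionine stood there in 16.9% to 33.8% of TRAV9N-3/TRAV9D-3 and 13.9% to 43.2% of TRAV9N-4 CDR3s, and in 0% to 3.45% of TRAV9-4 CDR3s, where alanine made up 32.7% to 60.0%. TRAV9-4, the V segment of these nearest to the J cluster, was also joined to J segments of higher number, with a mean of 35.7 to 38.4 per library against 18.1 to 24.4 for TRAV9N-3/TRAV9D-3. These ranges span sorted and unsorted libraries and were not tested.

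Sorted libraries held fewer distinct clonotypes than unsorted ones. The sort kept a family with a mean of 2.15% of unsorted reads, so this direction was set in advance and the tests below add no support. Thinned to 10338 reads, the size of the smallest library, unsorted libraries held 5200 and 3876 distinct amino acid CDR3s for Themis+/+ and 4083 and 4283 for Themis-/-. Sorted libraries held 82.4 and 341, and 86.0 and 492 (log2 ratio -4.12, exact permutation test, p = 0.0286, the smallest possible). The 10 most abundant CDR3s took 2.24% and 2.72%, and 5.04% and 3.27%, of unsorted reads, and 40.6% and 16.2%, and 39.4% and 10.9%, of sorted reads, 23.5 percentage points more on average (exact permutation test, p = 0.0286). Within the sorted groups, library 1 was the more concentrated in both genotypes. Distinct TRAV9 family CDR3s alone, without thinning, numbered 376 and 218 in unsorted Themis+/+ and 334 and 283 in unsorted Themis-/- libraries. In sorted libraries they numbered 78 and 339, and 84 and 497, and this was not tested.

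None of the most abundant clonotypes of the 4 sorted libraries used TRAV9N-3/TRAV9D-3. They are shown with the fifth CDR3 codon in capitals, from the cysteine to the last residue of CDR3.
Themis+/+ library 1, TRAV9N-4 with TRAJ4: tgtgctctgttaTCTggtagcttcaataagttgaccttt
Themis+/+ library 2, TRAV9-4 with TRAJ27: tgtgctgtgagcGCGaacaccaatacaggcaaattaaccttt
Themis-/- library 1, TRAV9N-4 with TRAJ22: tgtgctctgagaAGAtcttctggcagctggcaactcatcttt
Themis-/- library 2, TRAV9-4 with TRAJ31: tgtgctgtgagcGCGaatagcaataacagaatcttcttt
They took 943 reads (8.08% of the library) and 415 (2.28%) in Themis+/+, and 1111 (10.7%) and 587 (2.56%) in Themis-/- libraries. The Themis-/- library 1 clonotype was the only TRAV9N-4 sequence of its library.

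Few TRAV9N-3/TRAV9D-3 CDR3s were common to the sorted libraries. Of the CDR3s read with this segment in any of the 8 libraries, 593 occurred in 1 sorted library, 57 in 2, 14 in 3 and 3 in all 4, and 363 were read in unsorted libraries only. The 6 with the highest mean share of sorted reads among those in at least 3 sorted libraries are shown by their most abundant nucleotide sequence, with the fifth codon in capitals.
with TRAJ15: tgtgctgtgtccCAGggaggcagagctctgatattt
with TRAJ4: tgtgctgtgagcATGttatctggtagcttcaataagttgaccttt
with TRAJ33: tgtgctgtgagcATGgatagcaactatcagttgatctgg
with TRAJ12, methionine at position 5: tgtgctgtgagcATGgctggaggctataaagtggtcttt
with TRAJ12, threonine at position 5: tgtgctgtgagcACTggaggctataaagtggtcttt
with TRAJ9: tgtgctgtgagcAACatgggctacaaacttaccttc
The TRAJ9 CDR3 was read in all 4 sorted libraries, at 0.471% and 0.907% of reads for Themis+/+ and 1.06% and 0.0959% for Themis-/-, and in library 2 of both unsorted groups, at 0.0193% and 0.0432%. The TRAJ15 CDR3 took 5.45% and 0.269% of reads in Themis+/+ and 0% and 0.153% in Themis-/- sorted libraries, so that its mean rests on 1 library. The TRAJ4 CDR3 took 0.0771% and 0%, and 3.03% and 0.227%, and both TRAJ12 CDR3s were likewise largest in Themis-/- library 1, at 2.41% with methionine and 2.31% with threonine. The TRAJ33 CDR3 took 0% and 0.676%, and 1.91% and 0.301%. Of the 6, all but the TRAJ12 CDR3 with threonine were also read in at least 1 unsorted library, none above 0.0432% of its reads.

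The CDR3s found in the most libraries of both kinds included 4 of these 6 and another pair, of which the TRAV9-4 and TRAJ31 CDR3 is the most abundant clonotype of Themis-/- sorted library 2 shown above. Over all its nucleotide sequences it took 0% and 0.121%, and 0% and 2.95%, of sorted reads and 0.0136% and 0.0152%, and 0.000684% and 0%, of unsorted reads. The other CDR3 has proline at position 5 and was read with TRAV9N-3/TRAV9D-3 and with TRAV9-1, and its shares cover both segments.
with TRAJ15: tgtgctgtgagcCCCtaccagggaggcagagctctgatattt
It took 1.52% and 0.313% of reads in Themis+/+ and 0% and 0.379% in Themis-/- sorted libraries, and at most 0.00605% in an unsorted library.

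How often TRAV9 clonotypes of unsorted cells recur after the sort was then counted. Of the distinct TRAV9 family amino acid CDR3s, 39 of 376 (10.4%, Wilson 95% interval 7.68 to 13.9) and 25 of 218 (11.5%, 7.89 to 16.4) of the unsorted Themis+/+ libraries were read with a TRAV9 segment in at least 1 sorted library. In unsorted Themis-/- libraries 43 of 334 (12.9%, 9.70 to 16.9) and 36 of 283 (12.7%, 9.33 to 17.1) were. The intervals of all 4 libraries overlapped. CDR3s outside TRAV9 recurred, with a segment outside TRAV9, in 7 of 12809, 3 of 7667, 6 of 9295 and 7 of 9219 cases (0.0391% to 0.0759%), which the removal of these segments by the sort sets. By nucleotide sequence, TRAV9 recurrence was 5.62% and 4.98% for Themis+/+ and 7.10% and 8.06% for Themis-/-.

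Whether recurrence depended on genotype was not tested. The sorted pools differed in size, with 78 and 339 TRAV9 CDR3s for Themis+/+ and 84 and 497 for Themis-/-, and the counts were not adjusted for this. The same-genotype sorted libraries held 24 and 12 of the recurring Themis+/+ CDR3s and 27 and 25 of the Themis-/- ones, and those of the other genotype held 27 and 20, and 29 and 22. For comparison, 31, 23, 25 and 23 of the TRAV9 CDR3s of these libraries were read in another unsorted library. Sorted library 2 of both genotypes, with the most sequences, gave most of the matches: 20 and 10, and 27 and 19, were in Themis+/+ and 25 and 19, and 27 and 25, in Themis-/- sorted library 2. Without sorted library 2 of both genotypes, mean recurrence was 2.86% in place of 11.9%.

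The segments differed in recurrence. TRAV9N-3/TRAV9D-3 CDR3s recurred in 28 of 138 (20.3%) and 17 of 65 (26.2%) cases for Themis+/+ and in 27 of 139 (19.4%) and 25 of 126 (19.8%) for Themis-/-. Over all libraries, 76 of the 439 unsorted CDR3s of this segment were shared, 17.3% of them and 11.4% of the 667 sorted ones. For TRAV9-4, 6 CDR3s were shared, 3.82% of 157 unsorted and 4.38% of 137 sorted ones. TRAV9N-4, although it took 10.6% to 15.9% of sorted reads, shared 1 CDR3 out of 121 unsorted and 65 sorted. TRAV9-2 shared 2 of 149 unsorted and 18 sorted, and TRAV9D-2, TRAV9-1 and TRAV9D-1 shared 0. These segments had far fewer sorted sequences in which a match could occur.

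Seen from the sorted side, 21.8% and 16.2% of the TRAV9 CDR3s of Themis+/+ and 11.9% and 15.1% of those of Themis-/- sorted libraries were read in any unsorted library. They held 27.8% and 15.4%, and 13.5% and 15.8%, of the TRAV9 reads of those libraries. Most sorted clonotypes were thus not met at the depth of the unsorted libraries, where TRAV9 made up about 2.15% of reads.

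TRAV9N-3/TRAV9D-3 CDR3s that recurred had on average fewer N nucleotides than those that did not. They held on average 1.46 and 0.471 N nucleotides in Themis+/+ and 0.926 and 0.80 in Themis-/- unsorted libraries, against 2.04 and 2.10, and 2.07 and 2.00, in the other CDR3s of the same library. The share without any N nucleotide went the other way in Themis+/+ library 1, at 28.6% of recurring against 31.8% of other CDR3s, and was higher among recurring CDR3s in the other 3 libraries, at 51.9% to 68% against 34.8% to 45.8%. They used more V-distal J segments, with a mean J number of 15.3 and 15.9, and 14.1 and 17.4, against 22.7 and 27.4, and 19.3 and 21.1. Methionine stood at position 5 in 46.4% and 35.3%, and 37% and 36%, of the recurring CDR3s and in 12.7% and 10.4%, and 33% and 13.9%, of the others, so that the gap was small in Themis-/- library 1. Mean N count, mean J number and methionine share kept their direction in each of the 4 libraries and were not tested. In 3 of the 4 libraries the recurring CDR3s also had more reads, a median of 5 and 7, and 7 and 5, against 3 and 2.5, and 3 and 5, and the part of read depth in these differences was not tested.

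**Figure D5:**
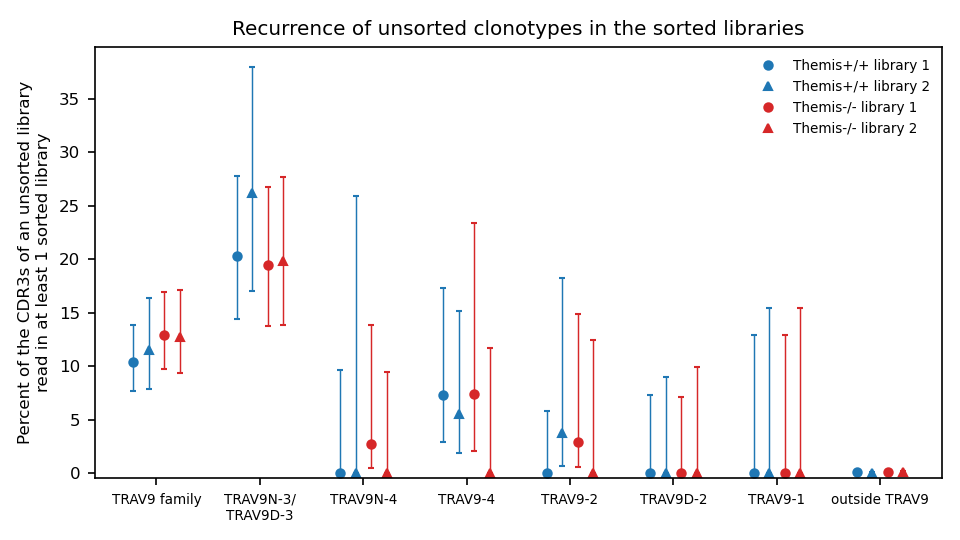
Points give the percent of an unsorted library's distinct CDR3s, by V segment along the horizontal axis, that were read in at least 1 of the 4 sorted libraries (vertical axis), with Wilson 95% intervals. TRAV9N-3/TRAV9D-3 lies at 19.4% to 26.2%, TRAV9-4 at 0% to 7.41%, and sequences outside TRAV9 at or under 0.0759%.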

How the data were processed

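TCRα cDNA made by template switching (5' RACE) was amplified with a constant-region primer, read on a MiSeq and extracted with MiXCR by the authors. The submitters' notes name CASAVA 1.4; no version of MiXCR was found in the labels or methods. Deposited were, for each CDR3 nucleotide sequence, an unnormalized read count and the fraction of the library it makes up, which in the authors' tables equals the count over the library total. No stop codon or frameshift remained, and 4.44% to 16.9% of clone numbers were missing, so some clones had been removed.

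A sequence was given its first highest-scoring V and J segment. Apart from ties of TRAV9N-3 with TRAV9D-3, the top V score was tied in 20.7% to 23.8% of unsorted and 0.813% to 3.57% of sorted sequences. Segments reaching 10 reads in 2 or more libraries were tested with edgeR 4.0.16 in R 4.3.3, scaled by library totals because the sort changes most segments, with genotype as a covariate; DESeq2 1.42.0, TMM, distinct sequences, each genotype alone and left-out libraries were alternatives. DESeq2 with library totals, each genotype alone, the crossed replicate block, 1 block per library number and recurrence without a numbered pair of sorted libraries were chosen after seeing the data. Adjusted p are Benjamini-Hochberg values over all segments or over the 8 properties. Libraries were also compared with two-sided exact permutation tests (70 splits). On simulated counts edgeR called 0, 2 and 18 of 20 V segments at log2 fold changes of 1, 2 and 4, and 0, 0 and 7 of 10 J segments. Other steps ran in Python 3.11.15 (biopython 1.88, matplotlib 3.10.9, scipy 1.17.1, pandas 2.3.3, numpy 2.4.6), with GENCODE M21 on GRCm38; the submitters' notes name the build mm9.

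Named were all TRAV9 segments with reads, the families TRAV12, TRAV14 and TRAV6, up to 5 higher and 10 lower V and 8 higher and 8 lower J segments by adjusted p whose groups do not overlap, and 6 CDR3s by mean sorted share. Libraries, segments and lists were chosen with earlier results of these data known.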

Additional observations from a re-analysis of the deposited data

Results flagged for a closer look

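Of the 100 groups of 4 libraries examined, 10 had a highest or lowest library far from the others (Dixon's test of the gap to the nearest library against the range). Chance flags about 1 in 20 groups.

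For 5 V segments the highest sorted library stood apart because the others had 0 reads. Themis+/+ library 2 held 0.00550% TRAV14-1 and 0.0110% TRAV9-1, and Themis-/- library 2 held 0.00872% TRAV14-3, 0.00872% TRAV7-5 and 0.301% TRAV9D-2. By reads, TRAJ47 to TRAJ37 were lowest in Themis+/+ sorted library 2, at 7.06%, against 10.6% to 10.9% in the others. Within TRAV9N-3/TRAV9D-3, TRAJ61 to TRAJ48 took 9.56% of reads in Themis-/- sorted library 1, against 1.53% to 1.94% in the others.

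Among unsorted libraries, Themis-/- library 1 had methionine at position 5 in 33.8% of its TRAV9N-3/TRAV9D-3 CDR3s, above the 16.9% to 19.6% of the others. Themis+/+ library 1 had the lowest share of sequences without N nucleotides, 31.8%, against 33.1% to 33.3%. Themis+/+ library 2 had the highest share of TRAV9N-3/TRAV9D-3 CDR3s that recurred, 26.2%, against 19.4% to 20.3%, from the fewest CDR3s.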

How the results depend on the processing

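The gain of TRAV9N-3/TRAV9D-3 and TRAV9N-4 kept its direction under every alternative run, and its call under all but DESeq2 with its own size factors (0.28 and 0.71). V segments called higher numbered 2 with TMM factors, 0 with DESeq2 and its own size factors, 2 without library 2 of every group and 2 to 4 with a library left out (2 without either Themis-/- unsorted library or Themis-/- sorted library 2). Those scalings take most segments as unchanged and moved the median log2 fold change from -10.88 to -11.89 and -14.22. The size of this median is not measured, as most segments had 0 sorted reads. V segments called lower numbered 1 without library 1 and 1 without library 2 of every group, with 4 libraries left, and 101 to 104 with a library left out. TRAV9-2, not called over all reads, was called higher by distinct sequences (2.45) and in Themis-/- alone (1.94), was called lower at -4.94 with DESeq2's own size factors, and turned to -2.13 with a replicate block, -2.07 with the block crossed for Themis-/-, -1.20 with 1 block per number over both genotypes, -0.35 in Themis+/+ alone and -10.76 without library 2 (-1.25 to 1.45 with a library left out). TRAV9D-4 turned to -0.55 with DESeq2's own size factors and to -8.77 without library 2, and TRAV9-4 to -0.84 without library 2.

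The interaction gave 0 to 2 calls with a library left out (none without Themis+/+ unsorted library 2 or either Themis-/- unsorted library), and ranged from -1.02 to 0.081 for TRAV9N-3/TRAV9D-3 and from -16.20 to 2.16 for TRAV9-4. For TRAV9N-4 it was 0.21 with TMM, and for TRAV9-4 -4.12 with the block. J segments called numbered 4 and 3 with DESeq2 (own factors, library totals), 10 by distinct sequences, 1 without library 1, 2 in Themis-/- alone and 0 to 2 with a library left out, 2 without Themis+/+ sorted library 2. Within TRAV9N-3/TRAV9D-3 they numbered 1 without library 2 and 0 to 1 with a library left out.

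Over all CDR3s, isoleucine or leucine stayed 6.89 to 9.08 points higher with a library left out, sequences without N nucleotides 1.5 to 6.52 (called without Themis-/- sorted library 1), and the 10 most abundant CDR3s 18.9 to 28.8, the last not called without any unsorted library. Within TRAV9N-3/TRAV9D-3, uncalled differences changed sign: length to -0.0549 weighted by reads and -0.0259 with at least 2 reads, hydropathicity to 0.0355 on the Hopp-Woods scale (-0.0494 to 0.00537 with a library left out), charge to 0.000305 with at least 2 reads, methionine to -4.0 and mean J number to 1.42 weighted by reads. Recurrence was 6.44% by nucleotide sequence, 21.4% within TRAV9N-3/TRAV9D-3, 7.20% with the same genotype, 2.86% without sorted library 2 of both genotypes and 7.61% to 12.4% with a library left out. The cause of these shifts was not tested.

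Sorted and unsorted libraries of the same number within a genotype did not go together in every pair (correlations of -0.20 to 0.20), so the numbers were not taken as pairs, although sorted libraries of a number went together across genotypes over V segments (0.41). With the replicate block 3 V segments were higher and 106 lower, as with the crossed pairing, and 3 and 104 with 1 block per number; TRAV9D-4 lost its call in each (1.57, 1.77 and 2.32), and J calls stayed at 0. Sorted library 1 of both genotypes, with 84 and 86 sequences, limits what can be said of rare segments there.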
